A study of Mus musculus with 9 samples.

Results

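DNA replication and G1/S genes were examined in the liver RNA sequencing of mice with nonalcoholic steatohepatitis (NASH). A list of 46 genes was used, taken by gene symbol from the count table, and their levels were compared between the 3 groups of the study. The table holds 24008 genes. Of the 46, 45 were found in it, and Cdc45 was not analysed here. Enough reads for a test were counted on 42 of them. Orc1, Cdc6 and Exo1 did not pass the filter on low counts.

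Whole liver from 9 mice on a high fat and high carbohydrate diet was sequenced, with 3 livers in each group and 1 library per liver. Flox mice carry loxP-flanked Irf4 alleles without a deletion, and their labels give a wild-type genotype. F4MKO mice lack IRF4, a transcription factor, in skeletal muscle through a muscle-specific Cre, and F4MKO+FSTL1 mice are the same knockout in which the secreted protein FSTL1 was overexpressed. By the methods, FSTL1 was delivered to the gastrocnemius with an AAV8 vector under the muscle creatine kinase promoter, after 24 weeks of diet in the design text and 12 weeks in the section on the virus, and livers were taken 4 weeks later. A GFP vector in both other groups is named there but not in the labels. The labels give no age or sex. The study's reporting summary names male C57BL/6J mice of 8 weeks, and in another entry experiments in both sexes. In the methods, 8 weeks is the age of wild-type mice before the diet, and livers were taken from older mice. The methods name both sexes for the Flox and F4MKO cohort on the diet. Neither the deletion nor the injection was aimed at the liver.

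Before a cell divides, its DNA is copied in S phase. In G1, the origin recognition complex with CDC6 and CDT1 loads the ring-shaped MCM2-7 helicase on origins, and cyclin E with its kinase then starts the helicase together with CDC45, GINS and MCM10. E2F transcription factors drive most of these genes at the G1/S boundary, and genes of G2 and mitosis come on later through the B-MYB and FOXM1 factors. Most hepatocytes of an adult liver are quiescent, and division in a NASH liver can come from hepatocytes, from bile duct cells or from immune and stellate cells.

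Each library held 20656976 to 24322984 counted reads. Expression is given as CPM, the count of a gene scaled to the TMM-normalized size of its library. A gene was called at an adjusted p under 0.05 (edgeR's quasi-likelihood test, Benjamini-Hochberg over all 14379 genes tested) and a fold change above 1.5. Irf4 was counted 101 to 132 times in Flox, 120 to 130 times in F4MKO and 10, 92 and 116 times in F4MKO+FSTL1 replicates 1, 2 and 3. These liver counts do not check a deletion made in muscle. Hepatocyte markers summed to between 67689 and 98860 CPM, with the lowest sum in F4MKO replicate 1, which stood apart from the other libraries. The p-values set each difference against the spread between livers within groups. That spread was estimated from all 9 libraries in 1 fit, with 3 livers a group.

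No gene of the list was called between F4MKO and Flox livers, where 0.271% of all genes tested were called. At an unadjusted p under 0.05 there were 8 of 42, beside 16.9% of all genes. DESeq2 called 2 of the list, Mcm6 as higher and Mcm10 as lower, beside 338 calls over all genes. In F4MKO+FSTL1 against F4MKO, 8 of 42 were called, 6 lower and 2 higher. That is 19.0% of the list, beside 14.4% of all genes tested, 11.2% called lower and 3.21% called higher, so that the list as a whole was near the background. At an unadjusted p under 0.05 there were 16 of 42, beside 35.3% of all genes. Against Flox, no gene of the list was called in F4MKO+FSTL1 livers by edgeR, where 0.00695% of all genes were. There 8 of 42 passed an unadjusted p of 0.05, beside 13.4% of all genes. DESeq2 called 2 of the list there, Mcm6 as lower and Mcm10 as higher, beside 284 calls over all genes. The first 2 comparisons share the F4MKO libraries, and the last shares a group with each of them.

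The 6 genes that fell with FSTL1 were Mcm6, Mcm5 and Mcm3 of the helicase, Gins2, Pole and Uhrf1, and the 2 that rose were Mcm10 and Tk1. The median log2 fold change over the 42 genes was -0.32 in F4MKO+FSTL1 against F4MKO, where the median of all genes was 0.01. The values ran from -2.20 to 1.60, with 30 below and 12 above 0. The 2 groups did not overlap for 17 of the 42 genes, beside 39.0% of all genes. In F4MKO against Flox, the median was 0.07 with 25 genes above 0, and the groups did not overlap for 10 genes, beside 21.8% of all genes. In F4MKO+FSTL1 against Flox, the median was -0.21 with 33 genes below 0, and 9 genes did not overlap, beside 18.2%. Since whole tissue was sequenced, fewer cells of a type and less RNA per cell cannot be told apart.

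**Figure D1:**
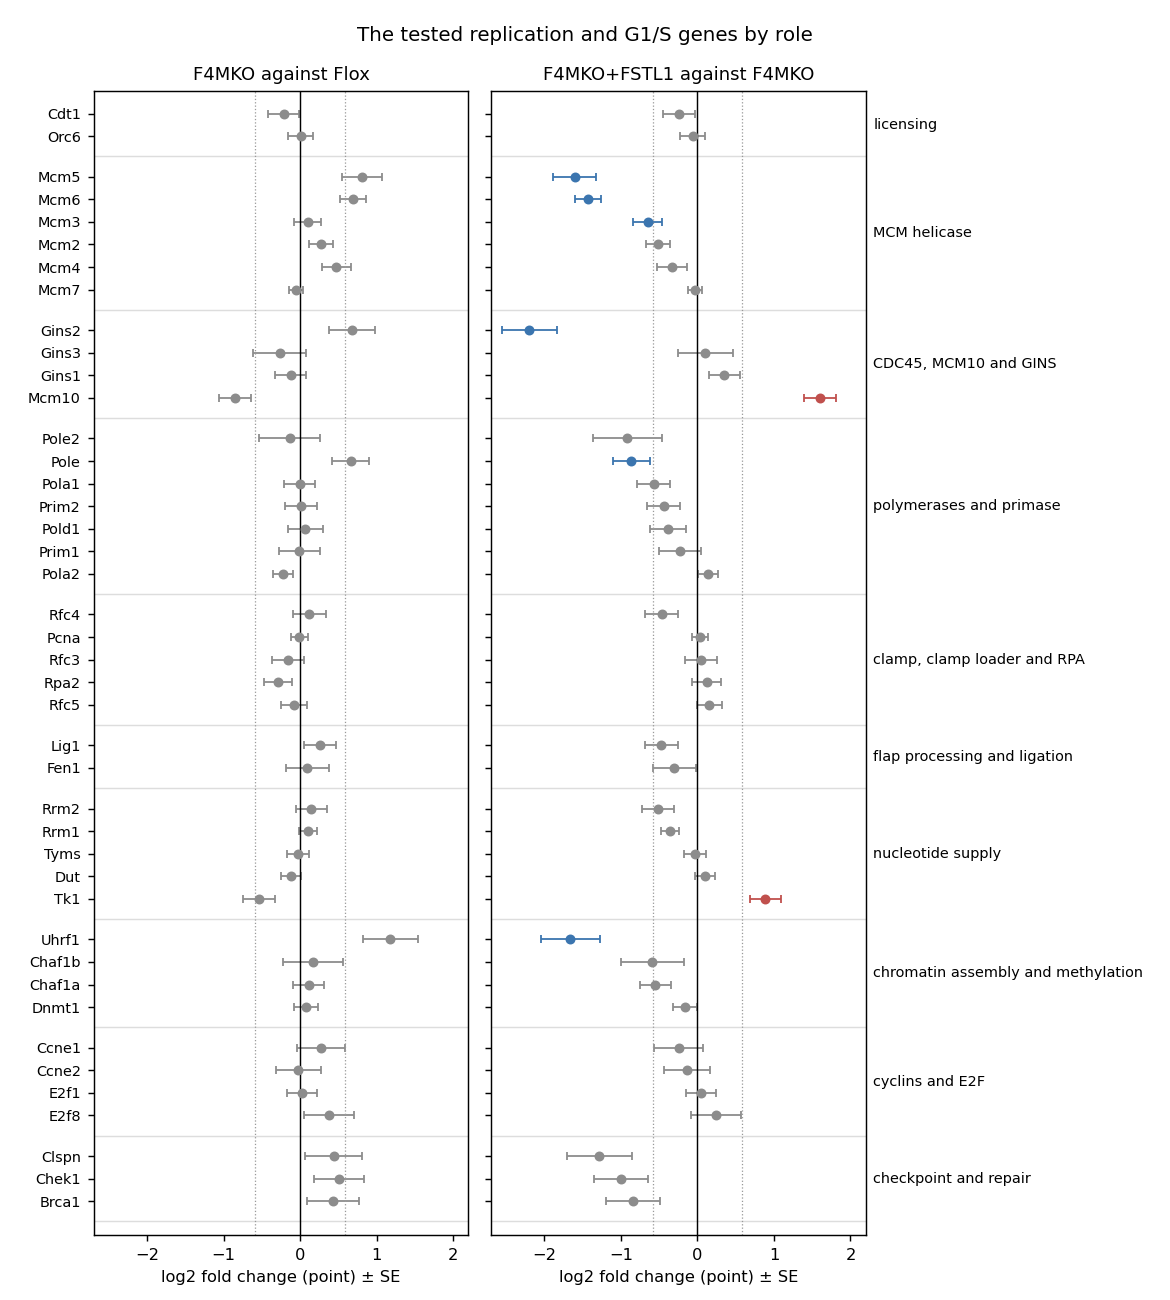
Log2 fold change of the 42 tested genes (points, with whiskers of 1 SE) in F4MKO against Flox on the left and F4MKO+FSTL1 against F4MKO on the right, grouped by role. Blue points were called lower and red points called higher, grey points were not called, and dotted lines mark a fold change of 1.5. The panels share the F4MKO libraries. On the right, Gins2 at -2.20 and Mcm10 at 1.60 are the farthest from 0, and the left panel has no coloured point.

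No tested gene that loads the helicase on origins was called. Cdt1, which brings MCM2-7 to the origin, had 6.60, 6.64 and 7.63 CPM in Flox, 6.01, 5.44 and 6.51 in F4MKO, and 3.74, 4.47 and 7.05 in F4MKO+FSTL1 livers. The last group spanned F4MKO and reached below Flox, with -0.24 ± 0.21 (SE) as the log2 fold change against F4MKO. Orc6, a subunit of the origin recognition complex, was at 5.39, 5.37 and 5.10 CPM, then 4.85, 4.69 and 6.39, then 5.28, 5.48 and 4.44 in the same order, with a log2 fold change of -0.07 ± 0.16. Orc1, the largest subunit of that complex, was counted 4, 9 and 5 times in Flox, 9, 8 and 4 times in F4MKO and 3 times in every F4MKO+FSTL1 library. Cdc6 was counted 2, 11 and 4 times, then 13, 10 and 7 times, then 4, 2 and 4 times. Neither could be tested at this depth.

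The 6 subunits of the MCM helicase, which form a single ring with 1 copy of each, did not all pass the test. Of the 6, 3 were called lower in F4MKO+FSTL1 than in F4MKO livers, beside 11.2% of all genes. Mcm6 was at 5.08, 4.96 and 5.24 CPM in Flox, at 9.34, 7.24 and 8.06 in F4MKO, and at 2.57, 2.79 and 3.81 in F4MKO+FSTL1 livers. All F4MKO livers were above all Flox livers, and all F4MKO+FSTL1 livers were below both. Mcm6 fell by 1.43 on the log2 scale (SE 0.18) from F4MKO to F4MKO+FSTL1, with an adjusted p of 0.00116 by edgeR's quasi-likelihood test. From Flox to F4MKO its log2 fold change was 0.69, with an adjusted p of 0.0864 by the same edgeR test. Mcm5 was at 1.96, 2.17 and 1.42 CPM in Flox, at 4.07, 2.39 and 3.27 in F4MKO, and at 0.935, 0.913 and 1.36 in F4MKO+FSTL1. It too was highest in F4MKO and lowest in F4MKO+FSTL1 without overlap, and fell by 1.61 (SE 0.28, edgeR adjusted p 0.00341) between these groups.

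Mcm7 did not pass any test. It was at 20.3, 19.5 and 20.6 CPM in Flox, at 19.9, 19.1 and 19.1 in F4MKO and at 17.3, 19.8 and 19.8 in F4MKO+FSTL1 livers. Between the last 2 groups, the log2 fold change of Mcm7 was -0.03 ± 0.09 (SE), the smallest of the 6 subunits. The exons of Mcm7 overlap those of Ap4m1, Cops6 and the microRNA genes Mir25 and Mir93, and whether reads were assigned by strand is not given in the sources used here. Mcm3, chosen here after its values were seen, was at 6.86, 6.62 and 6.71 CPM in F4MKO and at 3.69, 3.70 and 5.48 in F4MKO+FSTL1 livers. It fell by 0.65 (SE 0.19, edgeR adjusted p 0.0298), and the call was lost when any F4MKO library, or F4MKO+FSTL1 replicate 1 or 2, was left out. Mcm2 passed the adjusted p (0.041 by edgeR) but not the fold, at -0.51, and Mcm4 was at -0.33.

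**Figure D2:**
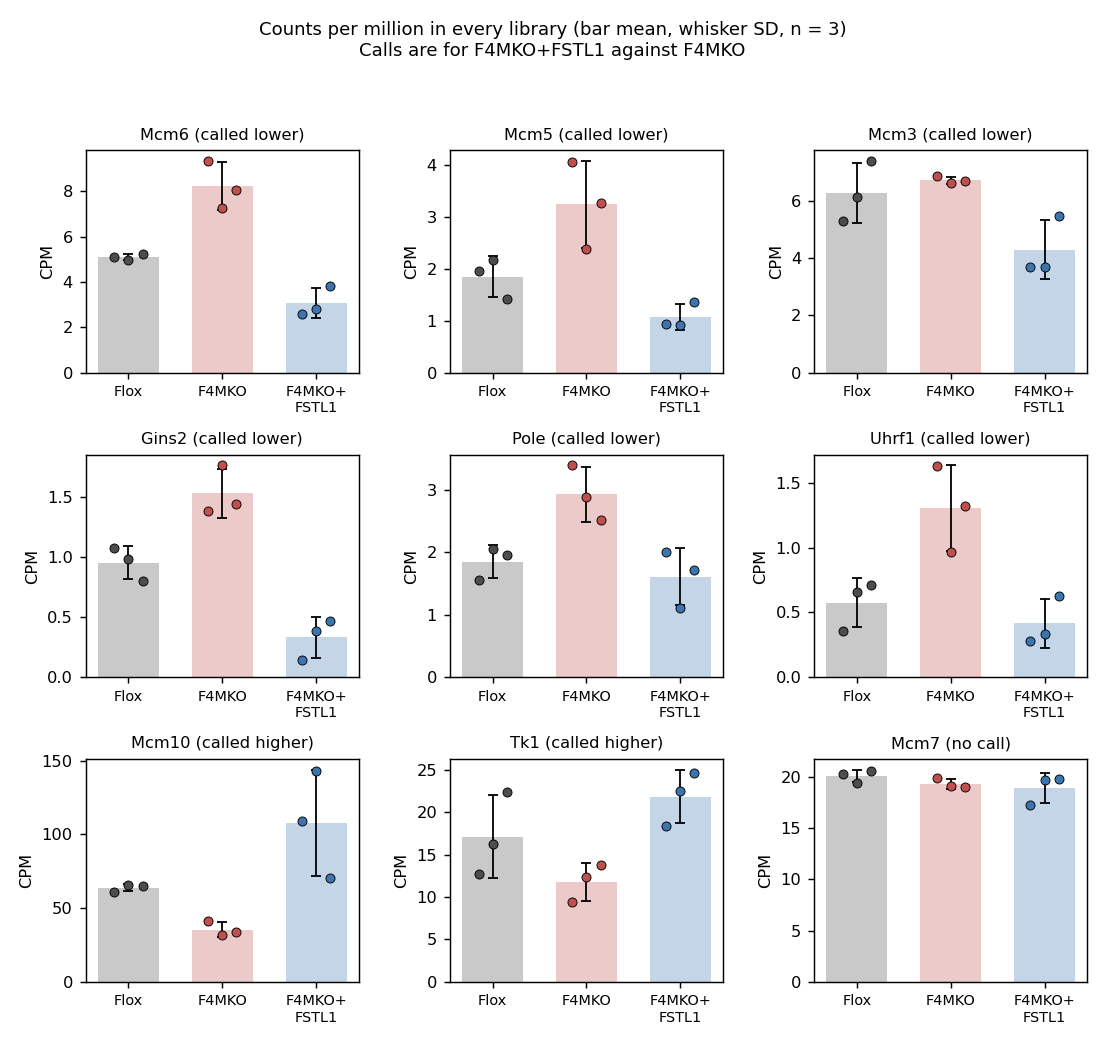
CPM of the 8 called genes and of Mcm7 in each library, with the group mean as a bar and the SD as a whisker (n = 3). The F4MKO livers sit above the F4MKO+FSTL1 livers for the 6 genes called lower, below them for Mcm10 and Tk1, and overlap with them for Mcm7, which lies at 17.3 to 20.6 CPM in all 9 livers.

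Levels of the helicase genes can also be set against Mcm7 in the same library, per kb of exon length, so that library size plays no part. Mcm6 was at 0.237 to 0.242 of Mcm7 in Flox, 0.360 to 0.444 in F4MKO and 0.134 to 0.182 in F4MKO+FSTL1 livers. Mcm5 was at 0.0764 to 0.124, 0.139 to 0.226 and 0.0512 to 0.0758 of Mcm7 in the same order of groups. For both genes, the 3 groups did not overlap, though for Mcm5 the highest F4MKO+FSTL1 value, 0.0758, was close to the lowest Flox value, 0.0764. Mcm3 was at 0.308 to 0.425, 0.406 to 0.415 and 0.221 to 0.326, so that Flox livers overlapped both other groups. Mcm2, at 0.141 to 0.158, 0.180 to 0.190 and 0.110 to 0.149, and Mcm4 overlapped between F4MKO+FSTL1 and Flox. Mcm10 went the other way, from 1.73 to 1.94 in Flox to 0.945 to 1.19 in F4MKO and 2.05 to 4.16 in F4MKO+FSTL1 livers.

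**Figure D3:**
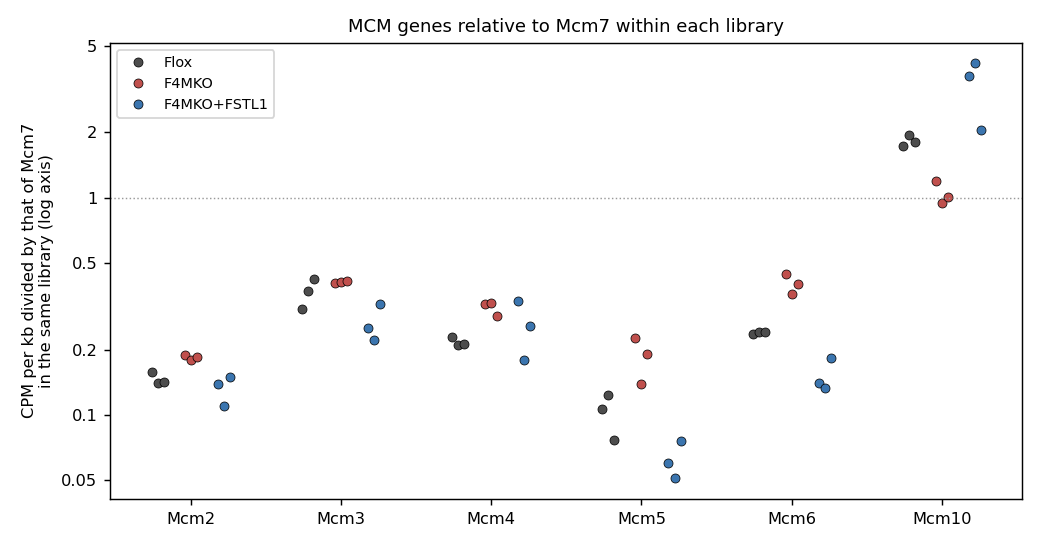
CPM per kb of 6 MCM genes divided by that of Mcm7 in the same library, on a log axis, with 1 point for each library. Mcm6 and Mcm5 are highest in F4MKO and lowest in F4MKO+FSTL1 livers, Mcm10 is lowest in F4MKO livers, and Mcm4 overlaps between F4MKO and F4MKO+FSTL1.

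Factors that start the loaded helicase moved in opposite directions. MCM10, which is needed to open the origin and shares no ring with MCM2-7 despite its name, was at 61.0, 65.8 and 64.8 CPM in Flox, 41.3, 31.4 and 33.6 in F4MKO, and 109, 143 and 70.6 in F4MKO+FSTL1 livers. The 3 groups did not overlap, with F4MKO lowest. Mcm10 rose by 1.60 on the log2 scale (SE 0.21) from F4MKO to F4MKO+FSTL1, with an edgeR adjusted p of 0.00137. Between F4MKO and Flox its log2 fold change was -0.85, with an adjusted p of 0.0864 by edgeR, and it was called there by DESeq2, without the filter on low counts and without F4MKO+FSTL1 replicate 3. Per kb of exon, Mcm10 had 8.30 CPM in Flox livers, next to Pcna at 12.2 and above Mcm7 at 4.55, while Mcm6 was at 1.09 and Mcm5 at 0.464. Gins2 ranked 37 of 42 per kb, at 0.232 CPM.

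Gins2, a subunit of the GINS complex that travels with the helicase, had 1.07, 0.983 and 0.799 CPM in Flox, 1.38, 1.76 and 1.44 in F4MKO, and 0.140, 0.384 and 0.470 in F4MKO+FSTL1 livers. The last values rest on 3, 8 and 9 reads. Gins2 fell by 2.20 (SE 0.36, edgeR adjusted p 0.00267) between the last 2 groups, with no overlap. Its exons overlap 2758 bases of Gse1 on the other strand, so that reads of the 2 genes may not be told apart. Gins3, of the same complex, was at 1.25, 0.738 and 0.932 CPM, then 1.24, 0.586 and 0.559, then 0.841, 0.913 and 0.836. These groups overlapped, and the log2 fold change was 0.10 ± 0.36 (SE). Gins1, a further subunit, was at 0.35 and was not called.

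Of the 7 polymerase and primase genes, 6 were below 0 in F4MKO+FSTL1 against F4MKO, beside 6991 of all 14379 genes tested. Only 1 of the 7 was called, near the 14.4% of all genes called. Pole, the catalytic subunit of the leading-strand polymerase epsilon, was at 1.56, 2.05 and 1.95 CPM in Flox, 3.40, 2.89 and 2.51 in F4MKO, and 2.01, 1.11 and 1.72 in F4MKO+FSTL1 livers. It was highest in all 3 F4MKO livers and fell by 0.86 (SE 0.25, edgeR adjusted p 0.0305) with FSTL1. This call was lost without F4MKO replicate 1 or 2 and without F4MKO+FSTL1 replicate 2 or 3. Pola1, the catalytic subunit of polymerase alpha that begins each new strand with primase, was at 2.41, 2.14 and 2.08 CPM in F4MKO and 1.64, 1.15 and 1.67 in F4MKO+FSTL1 livers. Its Flox values of 2.10, 2.42 and 2.13 were level with F4MKO, and its log2 fold change of -0.57 ± 0.21 (SE) had an edgeR adjusted p of 0.0802. Prim1, the catalytic primase subunit, was at 2.67, 3.03 and 3.24 CPM in Flox, 3.18, 3.10 and 2.59 in F4MKO, and 1.40, 2.88 and 3.34 in F4MKO+FSTL1 livers, a range that covered both other groups. The 4 other genes, Pola2, Prim2, Pole2 and Pold1, had log2 fold changes from -0.92 to 0.14.

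The sliding clamp and its loader held no called gene. Pcna, the clamp that holds polymerases on DNA and a common stain for dividing cells, was at 28.7, 26.8 and 32.6 CPM in Flox, 29.0, 27.7 and 30.7 in F4MKO, and 25.9, 31.2 and 32.2 in F4MKO+FSTL1 livers. All groups overlapped, with a log2 fold change of 0.03 ± 0.11 (SE) in the last comparison. Pcna was chosen here after its values were seen. Rfc4, of the clamp loader, was at 2.14, 1.80 and 2.40 CPM, then 2.12, 2.14 and 2.63, then 1.96, 1.59 and 1.41, with a log2 fold change of -0.47 (edgeR adjusted p 0.15). Rfc5, another loader subunit, was at 7.13, 7.46 and 8.43 CPM, then 7.18, 6.11 and 8.46, then 7.06, 7.40 and 9.82. Rfc3 was at 7.31, 6.31 and 7.77 CPM, then 6.58, 5.19 and 7.38, then 4.9996, 6.10 and 8.77. Both overlapped in all groups, with log2 fold changes of 0.16 and 0.05, and Rpa2 of the single-strand binding protein was at 0.12.

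Genes that finish the lagging strand were not called. Lig1, the ligase that seals Okazaki fragments, was at 3.57, 4.34 and 4.22 CPM in Flox, 5.91, 4.27 and 4.35 in F4MKO, and 2.76, 3.22 and 4.54 in F4MKO+FSTL1 livers. A single F4MKO+FSTL1 liver reached the F4MKO values, and without it (replicate 3) Lig1 was called lower at -0.69, beside -0.47 with all livers. Fen1, the flap endonuclease, was at 4.15, 3.07 and 4.62 CPM, then 5.20, 3.73 and 3.67, then 2.48, 2.69 and 5.12. Its log2 fold change was -0.30 ± 0.28 (SE), and 1909 bases of its exons overlap Gm10143 on the other strand. Exo1, an exonuclease, was counted 2, 7 and 6 times in Flox, 8, 2 and 7 times in F4MKO, and 1, 0 and 2 times in F4MKO+FSTL1 libraries, too few for a test.

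In nucleotide supply, the salvage enzyme Tk1 rose, and no gene of de novo synthesis was called. Tk1, the thymidine kinase of S phase, was at 12.7, 16.2 and 22.4 CPM in Flox, 9.37, 12.3 and 13.8 in F4MKO, and 18.4, 22.5 and 24.6 in F4MKO+FSTL1 livers. The F4MKO+FSTL1 livers were all above the F4MKO livers, and Flox livers overlapped both. Tk1 rose by 0.89 (SE 0.21, edgeR adjusted p 0.012), a call that was lost without F4MKO replicate 1, and its exons share 83 bases with Afmid on the other strand. Rrm1, the large subunit of ribonucleotide reductase, was at 10.97, 12.6 and 13.2 CPM in Flox, 14.1, 13.4 and 11.97 in F4MKO and 10.6, 9.997 and 10.2 in F4MKO+FSTL1 livers. It passed the adjusted p (0.0454 by edgeR) but not the fold, at -0.36 ± 0.11 (SE). Rrm2, its small subunit, was at -0.51 with an edgeR adjusted p of 0.103. Tyms, which makes thymidylate, was at 6.69, 6.47 and 7.72 CPM, then 7.32, 5.86 and 7.34, then 6.07, 6.87 and 7.21. These values overlapped in all groups, with a log2 fold change of -0.03, and Dut, which clears dUTP, was at 0.10.

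Among genes of chromatin behind the fork, Uhrf1 was called and its partner Dnmt1 was not. Uhrf1, which reads hemimethylated DNA and brings DNMT1 to it, was at 0.357, 0.656 and 0.710 CPM in Flox, 1.63, 0.963 and 1.32 in F4MKO, and 0.280, 0.336 and 0.627 in F4MKO+FSTL1 livers. All 3 F4MKO livers were above the other 6. Uhrf1 fell by 1.66 (SE 0.39, edgeR adjusted p 0.012) with FSTL1, on 6, 7 and 12 reads in F4MKO+FSTL1 libraries, and the call was lost without F4MKO replicate 1 or F4MKO+FSTL1 replicate 2. Dnmt1, the maintenance DNA methyltransferase, was at 11.9, 11.7 and 12.2 CPM in Flox, 15.4, 12.3 and 9.98 in F4MKO, and 10.5, 13.3 and 9.98 in F4MKO+FSTL1 livers, with full overlap and a log2 fold change of -0.16 ± 0.16 (SE). Chaf1a, of the chromatin assembly factor that places histones on new DNA, was at 2.23, 2.95 and 2.71 CPM, then 3.43, 2.47 and 2.59, then 2.01, 1.87 and 1.93. The F4MKO+FSTL1 livers were the lowest, but the log2 fold change of -0.55 did not pass (edgeR adjusted p 0.0798), and 4648 bases of its exons overlap Ubxn6. Chaf1b, its partner, was at -0.59.

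Neither the E-type cyclins nor the E2F genes of the list were called. Ccne1, the cyclin E that commits a cell to S phase, was at 1.16, 1.97 and 3.02 CPM in Flox, 2.26, 1.93 and 3.23 in F4MKO, and 1.82, 2.36 and 2.09 in F4MKO+FSTL1 livers. E2f1, an activating E2F, was at 5.22, 4.34 and 3.95 CPM, then 4.17, 4.73 and 4.87, then 6.12, 4.18 and 3.92, with a log2 fold change of 0.05 ± 0.20 (SE). E2f8, an atypical E2F that represses E2F targets, was at 7.09, 5.90 and 11.6 CPM, then 13.1, 10.97 and 7.74, then 10.6, 19.0 and 8.10. The groups overlapped for all 3 of these genes. Ccne2 was at -0.13.

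The 3 checkpoint and repair genes were below 0 in F4MKO+FSTL1 against F4MKO, and none was called. Clspn, the adaptor through which stalled forks activate CHK1, was at 0.446, 0.656 and 0.311 CPM in Flox, 0.778, 0.544 and 0.599 in F4MKO, and 0.280, 0.144 and 0.366 in F4MKO+FSTL1 livers. With FSTL1, Clspn had a log2 fold change of -1.28 ± 0.42 (SE), with an edgeR adjusted p of 0.0524. Chek1, which encodes CHK1, was at 0.669, 0.533 and 0.666 CPM in Flox, 1.17, 0.921 and 0.559 CPM in F4MKO and 0.421, 0.529 and 0.366 in F4MKO+FSTL1, with -1.004 ± 0.35 (edgeR adjusted p 0.0637). Brca1, of homologous recombination, was at 1.07, 1.07 and 2.22 CPM, then 1.84, 1.55 and 2.47, then 1.45, 0.817 and 0.992, with -0.84 ± 0.35 (edgeR adjusted p 0.111). In each of the 3 genes, the F4MKO+FSTL1 and F4MKO livers did not overlap, as was so for 39.0% of all genes tested.

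Genes around the list were counted in the same way for F4MKO+FSTL1 against F4MKO, beside the 14.4% of all genes called. Of 44 tested other replication genes, 2 were called, both lower, with a median log2 fold change of 0.02. They were Asf1b, a histone chaperone, at -1.28 ± 0.26 (SE), and Chtf18, which was named after its values were seen. Shmt1, of the folate cycle, was at 0.54 and did not reach the fold, and Rnaseh2b was at 0.00. Of 15 other G1/S activators, 3 were called lower. Ccnd1, the cyclin D that answers growth signals in G1, was at 13.8, 25.4 and 16.5 CPM in Flox, 61.7, 53.4 and 52.5 in F4MKO, and 9.58, 4.33 and 10.1 in F4MKO+FSTL1 livers. It rose from Flox to F4MKO by 1.59 (edgeR adjusted p 0.0404) and fell by 2.81 with FSTL1 (edgeR adjusted p 0.000665). Ccna2, the cyclin of S and G2, fell by 2.47, E2f2 was the third gene called (named after its values were seen), and Tfdp1, the E2F partner, was at -0.04. Of 17 G1/S inhibitors and repressors, 2 were called lower. They were Cdkn1a, the p21 inhibitor, at -2.42 ± 0.37 (SE), and Rbl1, named after its values were seen, while Lin52 was at 0.51 and E2f7 at 0.08. Among other S-phase checkpoint and repair genes, Fanci at -1.30 was called lower, and Atrip was at -0.01.

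Genes of mitosis and G2/M, which follow S phase, are set beside the list. Of 21 tested, 20 were called lower in F4MKO+FSTL1 than in F4MKO livers, with a median log2 fold change of -2.54, beside 6 of 42 and -0.32 in the replication list. Ccnb1 fell by 4.12, Top2a by 2.33, and Aurka was at -0.54 and missed the fold. In F4MKO against Flox none of the 21 was called by edgeR, all 21 were above 0, and their median was 0.73, beside 0.07 in the replication list. Centred on each gene's mean over the 9 livers, the median log2 CPM of the mitosis genes was -0.10, 0.77 and 0.10 in Flox, 1.26, 0.92 and 0.92 in F4MKO, and -1.44, -1.55 and -0.91 in F4MKO+FSTL1 livers. For the replication genes it was 0.00, 0.01 and 0.14, then 0.24, 0.08 and 0.10, then -0.21, -0.25 and -0.02. In both lists the F4MKO+FSTL1 livers were lowest, over a narrower range in the replication list.

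**Figure D4:**
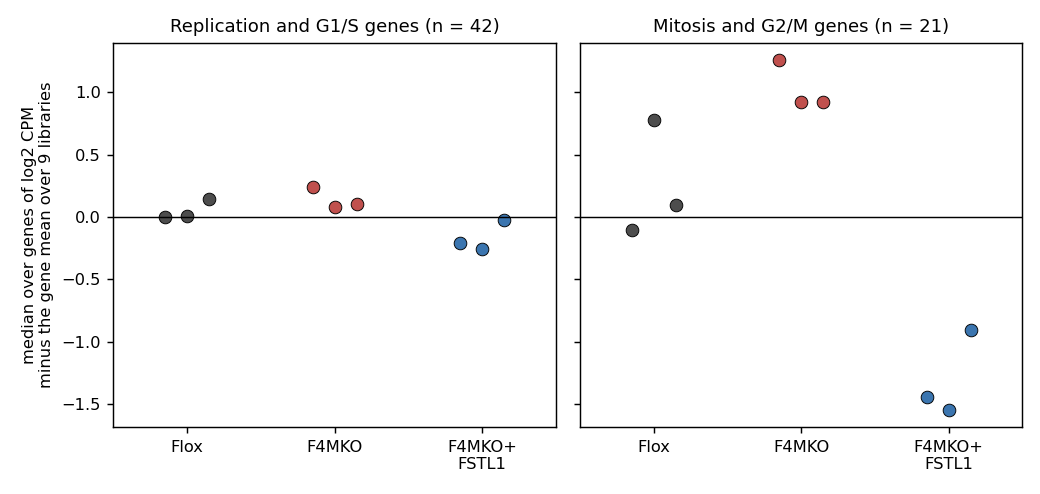
Median over genes of log2 CPM, centred on each gene's mean over the 9 libraries, with 1 point for each library. The 42 replication and G1/S genes lie between -0.25 and 0.24, and the 21 mitosis and G2/M genes between -1.55 and 1.26, on the same axis.

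Summed over the 45 genes found, the list made up 283 to 325 CPM in Flox, 262 to 295 in F4MKO and 313 to 369 in F4MKO+FSTL1 livers. Without Mcm10, chosen after its values were seen, the sums were 222 to 260, 231 to 254 and 203 to 243 CPM. The mitosis genes summed to 34.7 to 62.0 in Flox, 71.9 to 89.9 in F4MKO and 14.9 to 21.5 CPM in F4MKO+FSTL1 livers. Thus the summed replication list overlapped between F4MKO and F4MKO+FSTL1 once Mcm10 was left out, and the summed mitosis list did not.

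Markers of other liver cell types moved between the same groups, and their part in the values above was not tested. Of all genes tested, 11.2% were called lower and 3.21% higher in F4MKO+FSTL1 against F4MKO. In F4MKO+FSTL1 against F4MKO, 9 of 13 macrophage markers were called lower (Gpnmb at -2.65, Adgre1 at -0.96, Marco at 0.08), and their sum was 825 to 941 CPM in F4MKO and 407 to 610 in F4MKO+FSTL1 livers. Of 10 stellate cell markers, 6 were called lower (Col3a1 at -1.98, Col1a2 at -1.63, Acta2 at -0.70), with sums of 562 to 722 and 272 to 378 CPM. Of the 5 bile duct markers tested, 4 were called lower (Epcam at -2.58, Krt19 at -1.87, Sox9 at -0.72), with sums of 161 to 432 and 36.1 to 54.3 CPM. Flox livers had 649 to 1014, 417 to 486 and 50.8 to 89.3 CPM of these 3 lists. None of 10 endothelial (Clec4g at 0.44, Kdr at 0.39, Eng at 0.00), 8 T and NK cell (Klrb1c at -1.45, Cd3d at -0.95, Cd4 at -0.27) or 6 B cell markers (Ms4a1 at -0.90, Cd79a at -0.74, Mzb1 at -0.37) was called by edgeR. Endothelial sums were 280 to 348 in F4MKO and 309 to 370 CPM in F4MKO+FSTL1 livers, T and NK sums 8.42 to 12.8 and 4.07 to 12.5, and B cell sums 7.50 to 16.1 and 5.61 to 9.35. Of 3 neutrophil markers tested, Csf3r was called lower at -1.03, S100a9 was at -1.08 and S100a8 at -0.81, with sums over the list of 10.7 to 15.03 and 5.24 to 8.15 CPM. Ly6g, a defining neutrophil marker, was at 0 in 6 of the 9 libraries. Both tested erythroid markers were called higher, Alas2 at 0.62 and Klf1 at 0.96, with sums of 79.6 to 111 and 147 to 149 CPM, and 1 of 9 hepatocyte markers, Serpina1c at 1.21, was called higher, with Asgr1 at 0.49 and Apob at 0.01.

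Promoter windows were read for these genes because E2F is a known regulator of many of them. Windows from RefSeq (GRCm38.p6) span 250 bases before to 50 bases after a transcription start and were found for 39 of the 46 genes, and not for Mcm4, Gins1, Gins2, Prim2, Pole, Exo1 and Ccne2. The E2F words searched were TTTCCCGC, TTTCGCGC, TTTGCCGC and TTTGGCGC on both strands. They were in a window of 16 of the 39 genes (41.0%), 704 of all 27025 RefSeq genes with a window (2.60%) and 1 of 19 mitosis genes (5.26%). The CHR word TTTGAA, known from promoters of mitotic genes, was in 15.4% of the list, 20.2% of all genes and 73.7% of the mitosis genes. CCAAT, the NF-Y box, was in 59.0%, 41.1% and 89.5% of the same sets. Among the 10768 genes tested that have a window, the shares were 4.3% for E2F, 15.2% for CHR and 42.4% for CCAAT. The CHR share of the list was thus level with that of the genes tested. An E2F word can share its last bases with the reverse complement of another, and no word searched lies within a different motif. A match is a description of letters and not a site or a cause.

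**Figure D5:**
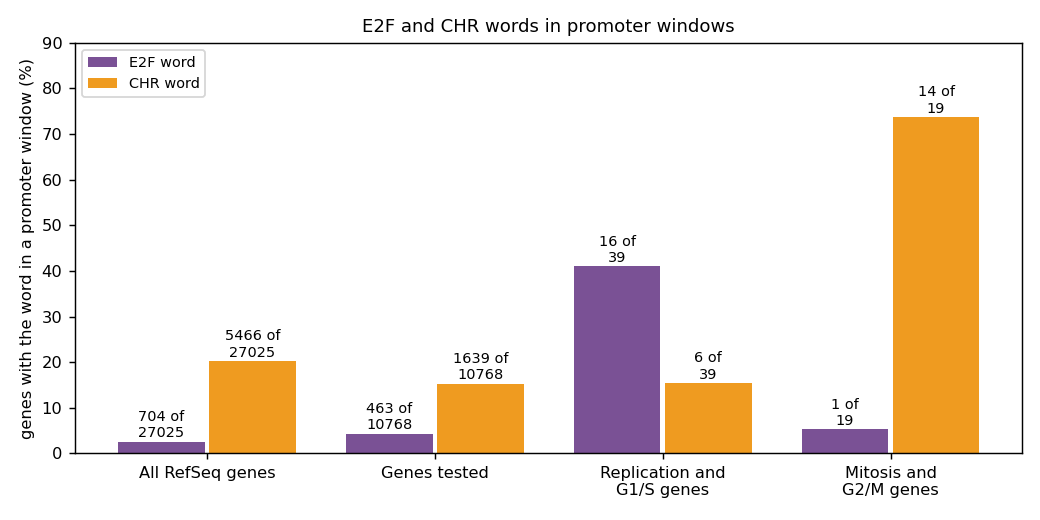
Share of genes with an E2F or CHR word in a promoter window, among all RefSeq genes, the genes tested, the replication and G1/S genes and the mitosis and G2/M genes, with the counts above the bars. E2F words are most frequent in the replication list (16 of 39) and the CHR word in the mitosis list (14 of 19).

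E2F words were found in windows of called and uncalled genes, before or after the start. All 4 genes called lower that have a window held such a word in at least 1 window (Mcm5, Mcm6 and Uhrf1 before the start, Mcm3 after it). Neither of the 2 called higher did (Mcm10 and Tk1), and 10 of 30 genes tested but not called did, Mcm7 among them. Uhrf1 and Mcm7 have 2 windows each. The word of Uhrf1 lies only in its second window (chr17:56304063-56304362), from which its bases are shown, and not in the first (chr17:56303087-56303386). The words of Mcm7 lie only in its first. The bases before the start are shown for Mcm6 and Uhrf1, called lower, and, chosen after the values were seen, for Mcm5, for Mcm7 (not called), for Mcm10 (called higher) and for Top2a of the mitosis list. Each runs 5′ to 3′ on the strand of the gene up to the base before the start, with E2F words in capitals in the first 5 and the CHR word in capitals in Top2a, and they lie at chr1:128359706-128359825 (minus strand, Mcm6), chr17:56304118-56304312 (plus, Uhrf1), chr8:75109346-75109508 (plus, Mcm5), chr5:138171884-138172058 (minus, Mcm7), chr2:5012792-5012911 (minus, Mcm10) and chr11:99024190-99024378 (minus, Top2a).
Mcm6: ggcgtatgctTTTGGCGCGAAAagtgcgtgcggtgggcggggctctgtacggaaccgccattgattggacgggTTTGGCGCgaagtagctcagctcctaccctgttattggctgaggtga
Uhrf1: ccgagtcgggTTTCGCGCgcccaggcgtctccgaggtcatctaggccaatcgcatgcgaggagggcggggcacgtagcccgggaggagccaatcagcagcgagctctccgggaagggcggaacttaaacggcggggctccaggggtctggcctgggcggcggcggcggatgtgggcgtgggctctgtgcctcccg
Mcm5: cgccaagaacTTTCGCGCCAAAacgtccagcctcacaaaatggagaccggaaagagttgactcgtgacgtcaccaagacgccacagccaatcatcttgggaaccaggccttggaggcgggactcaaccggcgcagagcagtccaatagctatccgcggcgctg
Mcm7: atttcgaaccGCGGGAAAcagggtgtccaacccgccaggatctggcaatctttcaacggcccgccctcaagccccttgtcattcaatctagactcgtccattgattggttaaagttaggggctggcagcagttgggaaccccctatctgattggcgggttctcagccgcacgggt
Mcm10: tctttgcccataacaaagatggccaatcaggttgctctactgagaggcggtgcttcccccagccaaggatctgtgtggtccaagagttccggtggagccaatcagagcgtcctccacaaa
Top2a: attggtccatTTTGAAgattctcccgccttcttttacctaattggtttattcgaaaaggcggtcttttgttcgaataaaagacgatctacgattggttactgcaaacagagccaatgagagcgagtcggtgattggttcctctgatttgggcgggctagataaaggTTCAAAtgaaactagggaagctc
Mcm6 holds 3 E2F words and Mcm5 holds 2, of which 2 overlap each other in each promoter as words on opposite strands. Mcm7, which was not called, holds 1 before its start and another after it. Mcm10 holds no E2F word in its window. Top2a, which fell by 2.33 on the log2 scale, holds 2 CHR words.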

How the data were processed

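Whole livers of 9 mice, 3 in each group, were sequenced with 150 bp paired-end reads on BGIseq500. Per the labels and methods, the authors trimmed reads with Trim Galore 0.6.7, mapped them to mm10 with HISAT2 2.2.1 and counted them on genes with featureCounts 2.0.1. They deposited raw counts, 1 whole number for each gene and library. The annotation, the use of strand and the treatment of reads with several hits are not given in the sources used here. The methods name a conversion to TPM and tests with DESeq2.

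The deposited counts were tested in R 4.3.3 with edgeR 4.0.16 (filterByExpr with a minimum count of 10 and a minimum total of 15, TMM, quasi-likelihood test, all 9 libraries in 1 fit, Benjamini-Hochberg over 14379 genes). SEs are the log2 fold change divided by the root of the F statistic. The common biological coefficient of variation was 0.150. CPM per kb used the summed exon length in GENCODE (GRCm38, the build of mm10). The fit was tested on simulated data. Groups come from the labels, and no batch is given in them. Columns left unmapped: 0.

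The genes and lists were chosen with earlier results of these data known. Genes are named by a rule: in each role, the 2 tested genes with the lowest p and the 1 with the highest in F4MKO+FSTL1 against F4MKO, the genes that failed the filter, and the same 2 and 1 in each other list. Promoters are shown by role for the called gene with the lowest p that holds an E2F word. Other choices are named as made after the values were seen. An item among the other S-phase checkpoint and repair genes is not reported here. Alternatives were DESeq2 1.42.0, its size factors in edgeR, no filter, only the 6 libraries compared, the replicate number as a block, adjusted p alone, a test against a fold change of 1.5, and each library left out. Where a group keeps 2 libraries, the fit assumes that they vary like the others.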

Additional observations from a re-analysis of the deposited data

How the results depend on the processing

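The 8 genes called in F4MKO+FSTL1 against F4MKO were all called with DESeq2, with DESeq2 size factors in edgeR, without the filter on low counts and in the 6 libraries compared. A test against a fold change of 1.5 kept 4 (Mcm5, Mcm6, Gins2 and Mcm10), an adjusted p alone gave 10, and leaving out 1 library gave 4 to 11. The 4 were called in all 9 of these fits. The lowest count, 4, came without F4MKO replicate 1, followed by 5 without F4MKO+FSTL1 replicate 2, and the highest without F4MKO+FSTL1 replicate 3. Over all genes, the main fit called 2070, the test against a fold change of 1.5 called 620, and an adjusted p alone gave 3001. Leaving out 1 library gave 1295 to 2216 calls over all genes. Of these, 1335 came without F4MKO replicate 1 and 1295 without F4MKO+FSTL1 replicate 2. In F4MKO against Flox, where no gene of the list was called, DESeq2 called 2, no filter gave 2, and leaving out 1 library gave 0 to 1. In F4MKO+FSTL1 against Flox, also with 0 called, DESeq2 called 2, no filter gave 3, and leaving out 1 library gave 0 to 2. Over all genes the calls rose from 39 to 338 with DESeq2 and 478 without the filter in the first of these, and from 1 to 284 and 379 in the second. The cause was not tested. With 1 library left out, all genes gave 0 to 100 calls in F4MKO against Flox and 0 to 101 in F4MKO+FSTL1 against Flox. The median log2 fold change of the list in F4MKO against Flox ran from -0.0012 (without F4MKO replicate 1, a reversed sign) to 0.13 when a library was left out, and in F4MKO+FSTL1 against Flox from -0.34 (without F4MKO+FSTL1 replicate 3) to -0.15. In F4MKO+FSTL1 against F4MKO it ran from -0.39 to -0.26. The replicate number as a block gave 8 calls of the list in F4MKO+FSTL1 against F4MKO and 0 in the other 2 comparisons. Over all genes, the calls with this block rose from 39 to 134 in F4MKO against Flox. They rose from 2070 to 2170 in F4MKO+FSTL1 against F4MKO and from 1 to 15 in F4MKO+FSTL1 against Flox. Same-numbered F4MKO and F4MKO+FSTL1 libraries correlated at 0.0919 to 0.304 in their deviations, Flox and F4MKO libraries at 0.0422 to 0.169, and Flox and F4MKO+FSTL1 libraries at -0.0985 to 0.206, so that the numbers were not taken as pairs. Between F4MKO and F4MKO+FSTL1, 6 of 6 libraries correlated best with their own number. Between Flox and F4MKO 5 of 6 did, and between Flox and F4MKO+FSTL1 2 of 6. This is a hint from the data and not the design. Depth limits genes such as Gins2 and Uhrf1, which rest on 3 to 12 reads in F4MKO+FSTL1 libraries.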

Other observations

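Histone genes were taken by symbol (Hist1h to Hist4h), the naming of the replication-dependent clusters. There were 65 such symbols, of which 13 passed the filter. Whether each of these genes is made only in S phase was not tested. In F4MKO+FSTL1 against F4MKO, 2 of the 13 (15.4%) were called, both higher, beside 14.4% of all genes, and 9 of 13 log2 fold changes were above 0, with a median of 0.26 beside 0.01 over all genes. The 2 were Hist2h2aa1 at 0.77 (edgeR adjusted p 0.0106) and Hist2h2aa2 at 0.78 (edgeR adjusted p 0.025), named after their values were seen. They are near-identical copies that can share reads, so that their split is uncertain. Hist1h2bc was at 0.49 with an edgeR adjusted p of 0.0169 and did not reach the fold. The linker histone gene Hist1h1c was at -0.43 and was not called (edgeR adjusted p 0.108). How RNA without a poly(A) tail was captured is not given in the sources used here.

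Within the F4MKO group, replicate 1 held the highest CPM for 24 of the 42 tested replication and G1/S genes, and replicate 2 for 1. Within the F4MKO+FSTL1 group, replicate 3 held the highest CPM for 25 of the 42 genes. In the Flox group, replicate 3 was highest for 22.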
